A study of Mus musculus with 2 samples.

Results

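The regions described here are the stretches of chromatin that the authors listed as bound by GPS2 in undifferentiated 3T3-L1 cells and no longer listed after 6 days of adipogenesis. They were chosen by the positions in the authors' lists, which rest on the reads of both libraries: a window of the day 0 list was taken when no window of the day 6 list overlapped it by 1 bp or more. The rule found 2123 such windows among 7652 of the day 0 list (27.7%, exact Clopper-Pearson 95% interval 26.7 to 28.8), beside 19794 windows of the day 6 list. They are called day 0-only windows below, and the remaining 5529 windows of the day 0 list are called shared windows.

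3T3-L1 is an established mouse preadipocyte line that turns into fat cells after hormonal induction. Chromatin was immunoprecipitated with rabbit antibodies raised against peptides from the ends of GPS2, and 1 library was sequenced from day 0 and 1 from day 6 of induction. The labels do not say which antibody served which library or how many cells had differentiated by day 6. No control immunoprecipitation was analysed here. Depth was 4258133 aligned reads at day 0 and 3543507 at day 6, so that 1 read stands for 0.235 and 0.282 RPM, the read count scaled to library depth. With 1 library per day there is no replicate and no test between days. Intervals of ratios cover the counting error of reads only. Intervals of shares treat the windows as independent draws, and neither kind covers variation between libraries. Fewer cells with GPS2 at a site cannot be told apart from less GPS2 per cell.

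GPS2 is a small subunit of the nuclear receptor corepressor complexes, which also contain NCoR or SMRT, TBL1 or TBLR1 and the histone deacetylase HDAC3. These complexes are best known for holding genes silent until a nuclear receptor binds its ligand. In fat cells GPS2 has also been tied to the recruitment of PPARG, the master regulator of adipogenesis, to particular promoters, and to the stability of the histone demethylase KDM4A. All positions are in the mouse build mm8, counted from 1. No annotation or genome of that build was used here, so windows carry coordinates in place of gene names and no sequence is printed.

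The first question was how much GPS2 signal these windows held on each day. At day 0 they held 7 to 148 reads each, with a median of 14, and at day 6 from 0 to 143 reads, with a median of 9. The shared windows were taller at both stages, with medians of 20 and 22 reads. The day 0-only windows were thus at the low end of the day 0 list before any change is considered. Summed, they held 32337 reads at day 0 and 20212 at day 6, which scaled to all reads of each library is a ratio of day 6 to day 0 of 0.751 (95% interval 0.738 to 0.764). The shared windows had a ratio of 1.33 (1.33 to 1.34). Both lists chose these groups, so the values describe the choice and support nothing further.

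**Figure D1:**
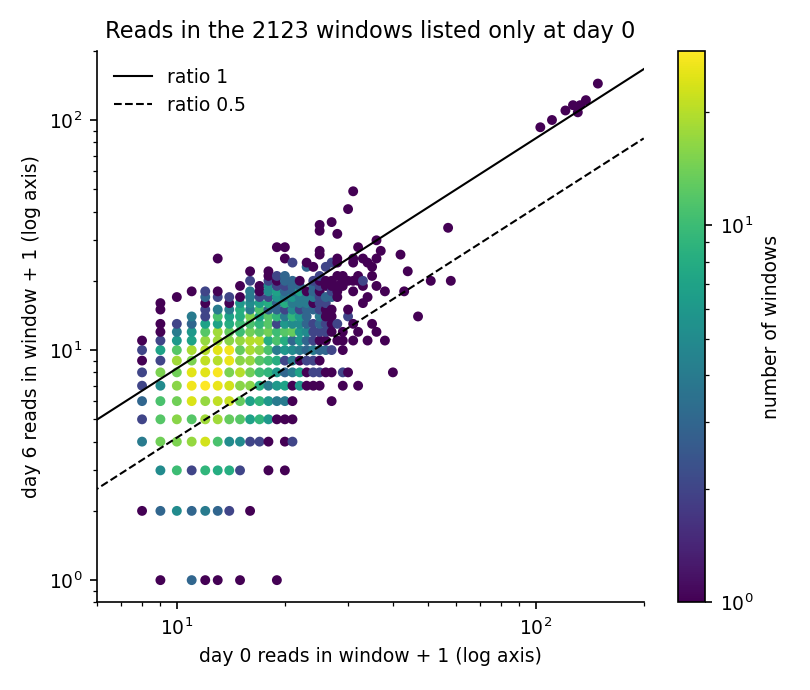
Reads at day 0 (x axis, log scale, 1 added) and at day 6 (y axis, log scale, 1 added) in the day 0-only windows, each point a pair of counts coloured by the number of windows that share it. The lines approximate equal depth-scaled counts (solid) and a ratio of 0.5 (dashed), since 1 was added to the counts and not to the lines. Of the 2123 windows 1661 had a ratio below 1, and the 6 windows with over 100 reads on both days lie close to the solid line.

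Most windows were not empty at day 6. Only 8 of the 2123 had no day 6 read, which at this depth allows up to 3 reads (8.47e-05% of the library). Of all day 0-only windows, 1255 (59.1%, 57.0 to 61.2) had at least 8 day 6 reads, the 5th percentile of the windows that the authors did list at day 6, and 270 (12.7%) had at least 15, the median of that list. Flanks were measured up to 5 kb to either side, outside all windows. The group's density was 2.88 times that of its flanks before induction and 2.004 times after it. For the shared windows these values were 4.58 and 5.80. A fold of at least 2 over the flank was found at day 6 in 1109 of 2121 day 0-only windows with a free flank (52.3%). Of all day 0 windows measured the same way it was 83.1%. At day 0 these shares were 85.5% and 92.2%.

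By size alone, 419 of the 2123 windows (19.7%) were lower at day 6, meaning a ratio of 0.5 or less and 10 reads or more in the larger library, and 5 were higher, meaning a ratio of at least 2. Over all day 0 windows the same rule called 6.14% lower and 7.5% higher, and over the 21227 merged windows of both lists 2.08% lower and 31.4% higher. The 5 higher windows held 8 to 12 reads at day 0 and 14 to 24 at day 6. They lay on chromosome 4 (105536576 to 105538575), chromosome 6 (120899828 to 120901827), chromosome 10 (79084007 to 79086006 and 117353032 to 117355031) and chromosome 11 (95645802 to 95647801). Because missing the day 6 list was the way into this group, nothing is read from the difference between these shares. At a minimum of 20 reads, 80 day 0-only windows were lower and 1 was higher. Scaled so that the median shared window had a ratio of 1, 782 were lower and 0 higher.

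The shape of the signal gave more detail than the totals. At the day 0-only windows the day 0 reads formed a narrow block. The 100 bp bins on either side of the window centre held 0.916 and 0.927 RPM per window, and the next bins outward 0.142 and 0.136. At day 6 the same windows had a low rounded peak at the same place, with 0.338 and 0.333 RPM next to the centre and 0.204 and 0.200 in the next bins. The highest day 6 bin still touched the centre. Within 200 bp of the centre the level was 9.18 times that beyond 2 kb at day 0 and 4.49 times at day 6.

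**Figure D2:**
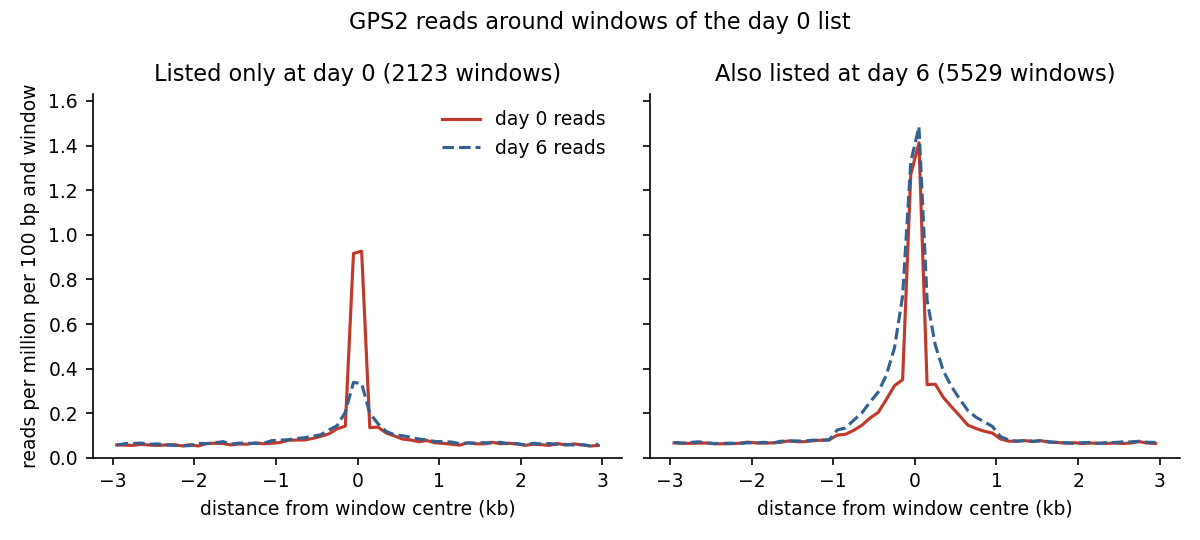
Mean read density (y axis, RPM per 100 bp and window) against distance from the window centre (x axis, kb) for day 0-only windows (left) and shared windows (right), with day 0 reads as solid and day 6 reads as dashed lines. In the left panel day 0 exceeds day 6 within 100 bp of the centre (0.916 against 0.338 RPM in 1 bin) and not at 150 bp (0.142 against 0.204 RPM).

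Summed over the group, the ratio scaled to all reads was below 1 only at the centre. Within 100 bp of the centre the day 0-only windows went from 16658 to 5048 reads, a ratio of 0.364. From 100 to 500 bp they held 8672 and 8669 reads, a ratio of 1.20, and from 500 bp to the window's edge 7007 and 6495 reads, a ratio of 1.11. Counted without the central 200 bp, the windows thus had more depth-scaled reads at day 6 than at day 0 (ratio 1.16, 1.14 to 1.19). At this scaling the direction of the summed value turned. Counted in the same way, the shared windows had 1.55 (1.53 to 1.56). With scaling to the shared windows the value without the centre was not counted. The shared windows showed the same order of ratios at a higher level, with 1.05 within 100 bp, 1.66 from 100 to 500 bp and 1.36 beyond. At day 0 they had a narrow block too, with 1.27 and 1.41 RPM next to the centre and 0.351 and 0.328 in the next bins. Both groups were listed on the day 0 reads, and the part of that choice in the low central ratio was not tested.

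Without the central 200 bp, 58 of the 2123 windows were lower (2.73%) and 114 higher (5.37%), beside 1.35% and 21.9% of all day 0 windows. Of the 58, 51 were also lower over the whole window. Fewer reads are left without the centre, so the minimum of 10 reads itself limits these calls. Whatever the number of reads, 830 of the 2123 had a ratio below 1 without the centre. The read density in the flanks moved little: scaled to all reads, the flanks of the day 0-only windows had a ratio of 1.06 (1.05 to 1.07) and those of the shared windows 1.04 (1.03 to 1.04). In 237186 bins of 10 kb outside all windows the ratio was 0.941.

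How tall a window stood at day 0 went with whether it was listed again. Of the windows with 7 to 12 day 0 reads, 836 of 1379 were day 0-only (60.6%, 58.0 to 63.2). The share was 40.5% at 13 to 15 reads, 24.7% at 16 to 19 and 14.8% at 20 to 25. Of the windows with 26 or more reads it was 89 of 1536 (5.79%, 4.68 to 7.08). The ratio of the day 0-only windows differed less between these classes and lay between 0.711 and 0.785. In the middle rows of the list, described next, it ran from 0.951 (0.871 to 1.04) at 7 to 12 reads to 0.667 (0.582 to 0.764) at 26 or more. The end rows did not show this fall. Their ratio was 0.727 (0.696 to 0.760) at 7 to 12 reads, 0.693 (0.643 to 0.748) at 20 to 25 and 0.836 (0.785 to 0.890) at 26 or more. The last value rests on 51 windows. Among them are the 5 tallest day 0-only windows, on chromosome 8 in dense background, with 126 to 148 day 0 reads and ratios from 0.989 to 1.16. Their part in the 0.836 was not tested.

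The place of a window in the deposited list separated the groups further. The labels and file headers do not say what the authors ordered the list by. Row number and day 0 reads had a Spearman correlation of -0.06 across the 7652 windows. The distance of a row from the middle of the list and day 0 reads had -0.14, and the median was 20 reads in the middle rows and 16 in the end rows, so windows at the ends were somewhat lower. Shared windows and the day 6 windows they overlapped held like places in the lists (Spearman 0.88 across 5529 windows, which share loci and libraries). The middle rows (1801 to 5300) and the end rows (1 to 1150 and 6303 to 7652) were compared as groups of sites that the overlap rule had not used.

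Sites from the middle rows were mostly listed again at day 6, and sites from the end rows often were not. Of 3500 windows in the middle rows 522 were day 0-only (14.9%, 13.7 to 16.1), and of 2500 in the end rows 1053 (42.1%, 40.2 to 44.1). The first end gave 40.4% and the last end 43.6%, and the 1652 rows between middle and ends 33.2%. As a result the end rows supplied 49.6% of the day 0-only windows and 26.2% of the shared ones. Windows are not replicates, so these shares were not tested.

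**Figure D3:**
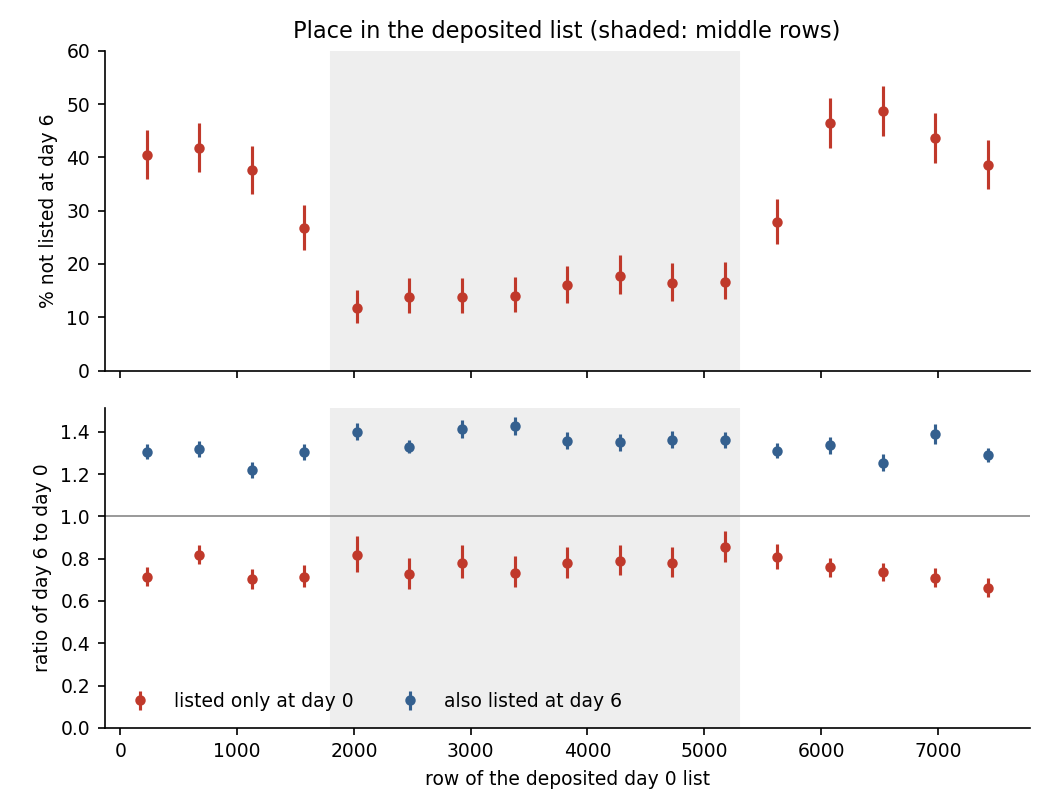
Share of day 0 windows not listed at day 6 (upper panel, %) and summed ratio of day 6 to day 0 (lower panel) in 17 successive blocks of rows of the deposited day 0 list (x axis, row number). Bars are 95% intervals, over windows for the share and over reads for the ratio. The 8 blocks from row 1801 on run from 11.8% to 17.8%, while the ratios of day 0-only windows lie between 0.662 and 0.854 in every block.

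The difference between the row groups was present at each height. Among windows with 7 to 12 day 0 reads, 39.3% of those in the middle rows were day 0-only against 67.9% in the end rows. At 16 to 19 reads the shares were 15.7% and 38.1%. At 26 or more reads they were 3.05% (21 of 688) and 9.60% (51 of 531). The end rows had the higher share on 19 of the 20 chromosomes with windows in both. On chromosome X, the exception, 9 of 19 middle windows and 29 of 67 end windows were day 0-only.

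Day 0-only windows of the middle rows also stood out more from their surroundings. Their density was 3.88 times that of the flanks before induction and 2.82 times after it, against 2.61 and 1.83 times in the end rows. At day 6, 76.1% of the middle group and 46.1% of the end group had a fold of at least 2. At day 0 these shares were already apart, at 96.4% and 83.4%. The flanks of the middle group were sparser, at 1.23 and 1.30 times the genome mean at day 0 and day 6, against 1.65 and 1.69 times in the end rows. The end value pools 1.89 at the first end and 1.46 at the last end at day 0. It includes chromosome 8 windows in dense background, described below. The median folds at day 0 were 4.0 in the middle rows and 2.86 in the end rows. The lower background thus went with the higher fold, and its part in it was not tested. Their summed ratios were closer together, 0.784 (0.758 to 0.811) in the middle and 0.730 (0.712 to 0.749) at the ends, and without the central 200 bp they were 1.16 and 1.15.

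Neighbourhood differed less. The nearest other day 0 window started a median of 51741 bp away from a day 0-only window and 44988 bp from a shared one, and 19.0% and 19.99% had one within 10 kb. From a day 0-only window to the nearest day 6 window the median gap was 19415 bp. A day 6 window lay within 5 kb of 478 (22.5%) and within 1 kb of 132 (6.22%), so that some were neighbours of sites still listed. Those within 5 kb had a ratio of 0.780 (0.753 to 0.808) and the other 1645 had 0.742 (0.727 to 0.757). At the edge of the rule, the closest day 0-only window lay 1 bp from a day 6 window, on chromosome 6 (114547465 to 114549464), with 27 reads at day 0 and 23 at day 6. The next lay 16 bp away on chromosome 15 (78450697 to 78452696), with 21 and 6 reads, and 17 bp away on chromosome 2 (168237961 to 168239960), with 12 and 6. Just outside the rule, the smallest overlaps of shared windows were 7, 9 and 11 bp. These windows lay on chromosome 12 (14 and 9 reads), chromosome 5 (22 and 9 reads) and chromosome 15 (15 and 12 reads). Their counts fell within the range of the closest day 0-only windows named above, which are too few to describe the edge in general.

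Day 0-only windows occurred on all autosomes and on X. Their share of the day 0 windows was lowest on chromosome 11 (21.8%, 18.5 to 25.4) and highest on chromosome X (42.5%, 32.9 to 52.4) and chromosome 13 (38.3%, 33.1 to 43.8), followed by chromosome 7 (35.8%). Per Mb they were densest on chromosome 8, with 1.57, and sparsest on X, with 0.272. Chromosome 8 also had the most day 0 windows of any kind, 753, of which 27.6% were day 0-only, beside 27.7% of the whole list. X had 106 day 0 windows, so density per Mb went with the number of listed windows. The summed ratio was below 1 on every one of the 20 chromosomes. It was lowest on chromosome 13, at 0.577 (0.533 to 0.624), and lay between 0.696 and 0.831 on the others. Chromosome X combined a high share with an ordinary ratio of 0.777. Without the central 200 bp, chromosome 13 was the only chromosome with a ratio below 1, at 0.881 (0.796 to 0.975), against 1.07 to 1.33 on the others. That value includes 39 windows of 1 stretch, described below, whose ratio without the centre was 0.502 (0.410 to 0.613). The rest of chromosome 13 was not counted apart in this way, so the low value may not hold for the whole chromosome.

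**Figure D4:**
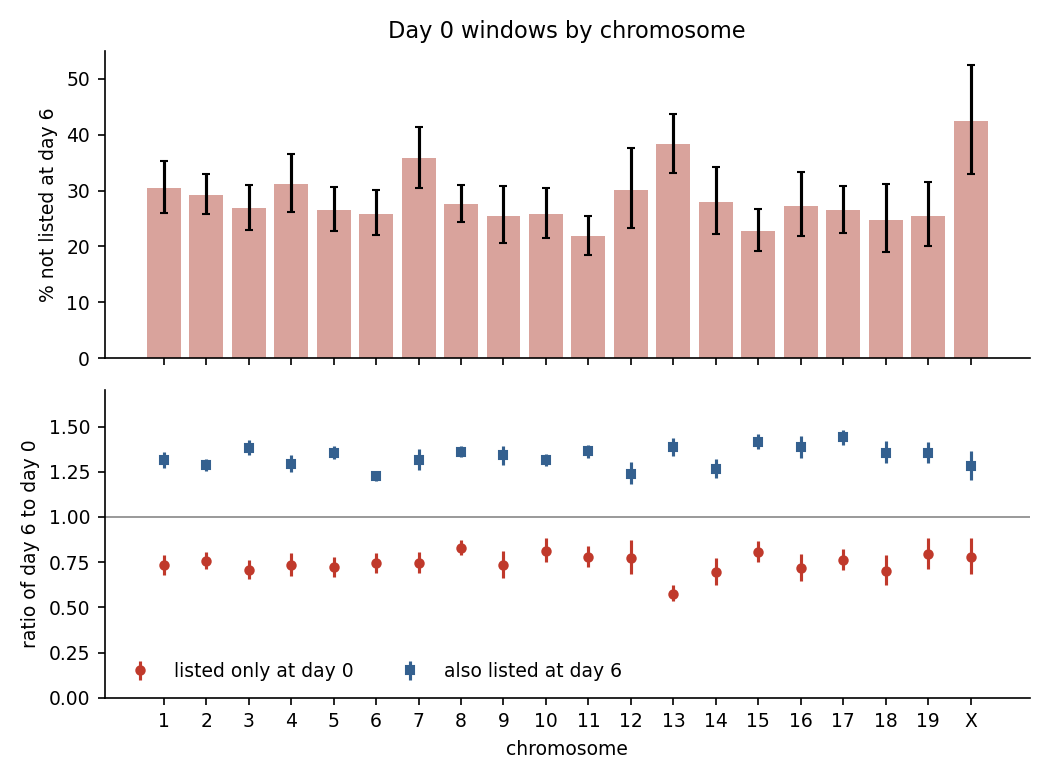
Share of day 0 windows not listed at day 6 (upper panel, %, bars from 0) and summed ratio of day 6 to day 0 for day 0-only and shared windows (lower panel) by chromosome (x axis). The 95% intervals are over windows for the share and over reads for the ratio. In the lower panel chromosome 13 has the lowest ratio at its day 0-only windows (0.577, beside 1.39 at its shared windows), while in the upper panel its 38.3% lies between chromosome X (42.5%) and chromosome 7 (35.8%).

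Of the 128 day 0-only windows on chromosome 13, 39 lay in 1 stretch and 89 outside it. Of the 5 segments of 500 kb with the most day 0-only windows, 3 lay there. They ran from 21000001 to 22000000 (9 of 13 and 13 of 26 day 0 windows) and from 23000001 to 23500000 (12 of 15). The first 2 of these joined with the next segment into the densest cluster, 21000001 to 22500000, in which 27 of 48 day 0 windows were day 0-only. Those 27 held 10 to 37 reads at day 0 and 0 to 13 at day 6, and all 27 had a ratio below 1. Their summed ratio was 0.426 (0.354 to 0.511), and 17 of them were lower by the size rule. Without the central 200 bp the ratio was still 0.530 (0.412 to 0.679). In this cluster the lower count was thus not limited to the centre, while over all day 0-only windows the ratio without the centre was 1.16. The flanks of the 27 windows had a ratio of 0.815 (0.700 to 0.948), against 1.06 for all day 0-only windows. The part of this lower background in the 0.530 was not tested. The other 2 of the 5 segments were on chromosome 2 (177000001 to 177500000) and chromosome 8 (73000001 to 73500000). Each held 10 day 0-only windows, among 19 and 30 day 0 windows, beside a share of 27.7% in the whole list. Their ratios were 0.611 (0.468 to 0.793) and 1.01 (0.805 to 1.27), while the flanks there had 0.792 and 1.42.

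Over the whole stretch from 21000001 to 23500000, which was chosen after its values were seen, 39 of 63 day 0 windows were day 0-only. They held 10 to 39 reads at day 0 (median 15) and 0 to 13 at day 6 (median 6), and 38 of the 39 had a ratio below 1. Of the 39, 36 came from outside the middle rows, while 15 of the 24 shared windows came from the middle rows. Those 15 held 10 to 37 reads at day 0 (median 21) and 18 to 34 at day 6 (median 25), and their summed ratio was 1.34 (1.15 to 1.55). The 9 shared windows outside the middle rows held 11 to 28 reads at day 0 (median 24) and 6 to 17 at day 6 (median 11). All 9 had a ratio below 1, and the summed ratio was 0.610 (0.474 to 0.781).

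The remaining 3 day 0-only windows, from the middle rows, had a ratio of 0.488 (0.235 to 0.956). Taken by row place alone, whatever the listing, the 18 windows of the middle rows had a ratio of 1.26 (1.09 to 1.46) and the 45 others 0.453 (0.397 to 0.515), with 44 of the 45 below 1. The middle rows were absent from its last segment. Within the segment from 21500001 to 22000000, which held both, 14 middle windows had 1.23 (1.04 to 1.44) and the 12 others 0.438 (0.336 to 0.566). Outside the stretch the same 2 classes of day 0 windows had 1.31 and 1.18. Background reads were lower in the stretch too: the flanks had a ratio of 0.737 (0.601 to 0.900) around the middle windows and 0.749 (0.664 to 0.845) around the others. Their part in the ratios was not tested, and the flanks of the 2 row groups differed by less than their counting error. Elsewhere on chromosome 13 the 89 day 0-only windows had a ratio of 0.668 (0.608 to 0.734) and made up 32.8% of 271 windows. Over the whole window the ratio was thus low there as well, and without the centre it was not counted. All day 0-only windows outside the stretch had 0.759.

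**Figure D5:**
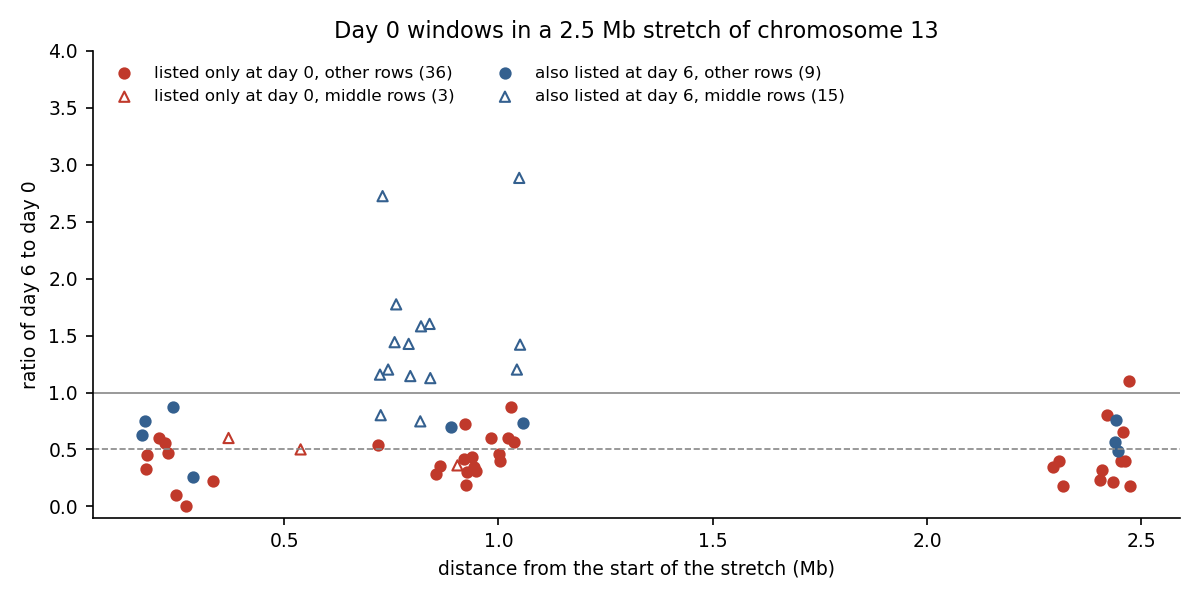
Ratio of day 6 to day 0 (y axis) for each of the 63 day 0 windows in the stretch of chromosome 13, by distance from its start (x axis, Mb), with day 0-only windows in red, shared windows in blue, middle rows as open triangles and other rows as filled circles. Of the 45 circles 44 lie below 1, and 13 of the 15 blue triangles lie above it.

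Mouse chromosome 13 carries the main cluster of replication-dependent histone genes, whose transcription is tied to DNA synthesis, and a large group of transfer RNA genes, which RNA polymerase III transcribes. In RefSeq's annotation of GRCm38.p6, used here without coordinates, it has 53 of 67 such histone genes and 105 of 408 nuclear tRNA genes, and 90 of these 105 lie within 50 places of a histone gene in the gene order. Whether the windows of the stretch lie at these genes was not determined.

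To see whether other places behaved in this way, all 137 segments of 500 kb with at least 5 day 0 windows outside the middle rows were ranked by the ratio of those windows, whatever their listing. The median segment had 1.08, and 4 segments were below 0.5. The 3 lowest were on chromosome 13, those from 21000001 to 22000000 and from 23000001 to 23500000, at 0.423 to 0.438. Of their ranked windows 8 of 12, 11 of 12 and 12 of 15 were day 0-only. The ranking thus repeats much of the choice of these windows and is no separate support. The segment from 22000001 to 22500000, also in the densest cluster, had 0.619 (0.431 to 0.880) over 6 windows, and its flanks had 0.455 (0.311 to 0.654). The fourth segment below 0.5 was on chromosome 11 (48500001 to 49000000), where 5 windows held 134 and 51 reads. Their ratio was 0.457 (0.325 to 0.636), or 0.565 (0.378 to 0.833) without the central 200 bp. Its flanks had a ratio of 0.990, and its 1 middle window held 12 and 16 reads. Of the 5, 3 were day 0-only. The window from 48676373 to 48678372 held 33 and 10 reads, and that from 48699085 to 48701084 held 46 and 13, a ratio of 0.340 (0.168 to 0.639). The third held 12 and 6. On chromosome 11 a further segment, from 68500001 to 69000000, had a ratio of 0.584 (0.468 to 0.727) over 6 windows, none of them day 0-only.

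Single windows showed the range. The lowest ratios among the 359 day 0-only windows with at least 20 reads in 1 library were all on chromosome 13, and as extremes of many they overstate the change. Those at 23473552 to 23475551 and 23315573 to 23317572 each had 20 reads at day 0 and 3 at day 6, giving a ratio of 0.180 (0.0343 to 0.608). At 23432894 to 23434893 there were 39 and 7 reads (ratio 0.216, 0.0814 to 0.488), or 9.81 and 2.60 times the flanks. It lay only 180 bp from a day 6 window. The last 2 held 26 and 5 reads (23403596 to 23405595) and 31 and 6 reads (23507477 to 23509476). None of these 5 was in the middle rows.

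At the other extreme, some windows were missing from the day 6 list although they held more depth-scaled reads on that day. Among the 359 windows with at least 20 reads in 1 library, the largest ratio was on chromosome 10 (79084007 to 79086006), with 12 and 24 reads, a ratio of 2.40 (1.16 to 5.27) and a fold over the flank of 3.20 and 4.0. Another on chromosome 10 (31297807 to 31299806) held 19 and 27 reads and went from 4.32 to 10.02 times its flanks, with no day 6 window within 61572 bp. On chromosome 13 (114923736 to 114925735) a window 795 bp from a listed one held 24 and 34 reads and went from 6.18 to 12.6 times its flanks. The other 2 of the 5 largest ratios among these 359, on chromosome 15 (6479857 to 6481856, 30 and 48 reads) and chromosome 10 (80833318 to 80835317, 18 and 27 reads), stood 1.29 and 2.18 times above their flanks at day 6. Of these 5 intervals, those of the first chromosome 10 window and of the chromosome 15 window (1.19 to 3.14) excluded 1. The labels do not state the thresholds of the lists.

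The windows with the most reads were of a different kind. The 5 tallest day 0-only windows all lay on chromosome 8 between 126435855 and 126509096, with 126 to 148 reads at day 0 and 107 to 143 at day 6. Their ratios ran from 0.989 to 1.16, and each interval included 1. Their density was only 1.03 to 1.94 times that of the flanks before induction and 1.08 to 1.86 times after it, in a part of the chromosome with dense background. The tallest of them, with 148 and 143 reads, was at 1.94 and 1.86 times its flanks. The part of the background in these heights was not tested. The most prominent window over its flanks was on chromosome 15 (91737036 to 91739035), with 102 and 92 reads, 12.3 times the flanks at day 0 and 14.3 times at day 6. It lay 93 bp from a day 6 window and had a ratio of 1.08 (0.809 to 1.45). Next came the chromosome 11 window with 33 and 10 reads, at 10.2 and 3.71 times, and a chromosome 13 window (21176705 to 21178704) that went from 37 to 10 reads and from 10.1 to 2.30 times. The fifth was on chromosome 9 (114826259 to 114828258), with 33 and 16 reads and 9.71 and 4.0 times its flanks, more than 100 kb from any day 6 window.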

How the data were processed

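GPS2 ChIP-seq was analysed in 1 library from day 0 and 1 from day 6. Per the submitters' processing notes the tools were Bowtie and HOMER and the build mm8; the labels give no versions, roles, thresholds or peak-calling control. The authors deposited aligned reads of 36 bases, at most 1 per start and strand, with a score column that was not used as a measure, and lists of window positions, all 2000 bp wide, with no heights.

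Read starts were moved 95 bp (day 0) and 85 bp (day 6) towards the fragment centre and counted per window (Python 3.11.15, numpy 2.4.6, scipy 1.17.1). Ratios are scaled to all reads and carry exact conditional binomial 95% intervals, and shares carry Clopper-Pearson intervals. The fold over the flank used 5 kb on both sides outside all windows, or the genome mean over the span of the reads where higher, and needed 2 kb of free flank. Functions were tested on simulated data, and overlaps checked with bedtools 2.31.1. Named windows were taken by rule: the 5 with most day 0 reads, highest fold, and smallest and largest ratio (at least 20 reads in 1 library), the 3 on either side of the overlap rule, and the 5 segments with most members. The windows, groups and rules were chosen with earlier results of these data known. Leaving out the central 200 bp or the chromosome 13 stretch, and the ranking of segments, were chosen after seeing the data.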

Additional observations from a re-analysis of the deposited data

How the results depend on the processing

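With 1 library per day no replicate could be left out. No paired analysis was possible because neither day has replicate numbers. Of 102 alternative values, 51 stayed within the reported interval or within 1.5 times of the reported count, 48 moved and 3 turned direction. Where the setting's own construction does not show it, the cause was not tested. The share of day 0-only windows was 30.8% with an overlap of at least 1 kb required, and 26.0% and 21.5% with any day 6 window within 1 kb or 5 kb ending membership.

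The summed ratio was 0.651 in the central 1 kb and 0.507 in the central 400 bp, 0.798 scaled by reads outside all windows and 0.573 scaled by the median of the shared windows. Leaving out the central 200 bp was chosen after seeing the data and was counted only with scaling to all reads. There the summed ratio turned to 1.16, in the middle rows to 1.16 and in the end rows to 1.15, while the densest cluster had 0.530. The fold over the flank at day 0 and day 6 was 4.51 and 2.72 in the central 1 kb, 8.54 and 4.01 in the central 400 bp, and 1.55 and 1.67 without the central 200 bp. It was 2.75 and 1.93 with flanks of 2 kb, 2.95 and 2.08 with 10 kb, and 2.99 and 2.10 without the genome mean as a floor. It was 2.99 and 2.05 without very dense background, and 2.99 and 2.11 without windows near a day 6 window (5 kb).

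Lower windows numbered 782 after scaling by the shared windows, 80 at a minimum of 20 reads, 795 and 145 at ratios of 1.5 and 3, and 58 without the central 200 bp. Higher windows numbered 2 without windows near a day 6 window, 1 and 0 in the central 1 kb and 400 bp, 0 after scaling by the shared windows, 1 at 20 reads, 39 and 0 at ratios of 1.5 and 3, and 114 without the central 200 bp. Among windows with at least the median day 0 reads, day 0-only shares were 8.27% in the middle rows, 18.7% in the end rows, 21.3% on chromosome 13 and 21.1% on X, and the ratios in middle and end rows 0.725 and 0.759. With the list in 3 equal parts the outer parts had 33.9%. Chromosome 13 had 32.3% without windows near a day 6 window and 32.8% without its stretch, also chosen after seeing the data. By reads in the central 400 bp, the lowest and highest class held 45.5% and 7.70%. At a median of 14 reads, depth limits single windows: a window with 20 and 3 reads had a ratio interval from 0.0343 to 0.608.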
